A study of Mus musculus with 14 samples.

Results

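The genes described here are 4 keratins of wounded and hyperproliferative epithelium (Krt16, Krt6a, Krt6b and Krt17) and 4 genes of the late epithelial cell surface (Sprr1a, Sprr1b, Sprr2d and Dmkn), measured in eyes of newborn mice. The 8 genes were listed by name, and every probe set annotated to only 1 of them was used, which gave 11 of the 20380 probe sets with a single gene. Krt6a had 3 probe sets, Krt17 had 2 and the other 6 genes had 1 each. A further probe set annotated to both Krt17 and Krt14 was dim on all 14 arrays (log2 level 2.54 to 4.17) and was not used. The genes were chosen by their log2 levels in the arrays of both experiments, each knockout against its own wildtype, so their levels, changes and counts of calls only describe these arrays and are no test of the genes.

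Affymetrix arrays with a single colour, 14 in all, measured total RNA of whole eyes at postnatal day 1, from mice that had lost Brg1 or Snf2h conditionally and from wildtype mice. The Brg1 experiment held 3 conditional knockout (cKO) and 3 wildtype samples on a mixed background. The Snf2h experiment held 4 lens-conditional cKO and 4 wildtype C57BL/6 samples, and no wildtype array was shared. Both proteins are motors that move or evict nucleosomes, Brg1 (gene Smarca4) in SWI/SNF and Snf2h (gene Smarca5) in ISWI complexes. The labels do not name the Cre driver of either line or the cells in which Brg1 was deleted. Strain and experiment cannot be told apart, so each knockout was set against its own wildtype.

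Keratins form the intermediate filaments of epithelial cells as pairs of a type I and a type II chain. Krt16 and Krt17 are type I chains and Krt6a and Krt6b are type II chains. All 4 are known from hair follicles and other specialised epithelia, and in epidermis and cornea they are known as keratins that appear after injury. The small proline-rich proteins, encoded by the Sprr genes, are cross-linked by transglutaminases into the cornified envelope beneath the membrane of stratified epithelial cells. Dmkn encodes dermokine, a secreted protein of stratified epithelia.

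The promoter windows of the 4 surface genes are shown because windows were available for these genes and not for the keratins. They come from RefSeq on the build GRCm38.p6, run 5' to 3' on the gene's own strand, and hold 250 bases before and 50 bases after the annotated start. Matches to TGANTCA, the letters bound by AP-1 transcription factors, stand in capitals. The windows are chr3:92485832-92486131 on the minus strand for Sprr1a, chr3:92438730-92439029 on the minus strand for Sprr1b, chr3:92338890-92339189 on the plus strand for Sprr2d and chr7:30763506-30763805 on the plus strand for Dmkn.
Sprr1a: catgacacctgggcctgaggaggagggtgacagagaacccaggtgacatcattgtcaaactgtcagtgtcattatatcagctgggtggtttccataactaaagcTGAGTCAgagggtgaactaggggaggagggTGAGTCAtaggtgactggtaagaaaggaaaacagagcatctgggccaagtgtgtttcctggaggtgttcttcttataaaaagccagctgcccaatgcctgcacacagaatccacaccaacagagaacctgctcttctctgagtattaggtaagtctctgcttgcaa
Sprr1b: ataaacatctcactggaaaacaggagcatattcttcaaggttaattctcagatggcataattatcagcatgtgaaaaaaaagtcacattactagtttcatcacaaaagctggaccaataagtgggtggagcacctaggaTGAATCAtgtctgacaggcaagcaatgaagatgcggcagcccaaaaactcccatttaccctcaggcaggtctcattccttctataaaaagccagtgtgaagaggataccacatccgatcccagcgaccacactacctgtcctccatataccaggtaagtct
Sprr2d: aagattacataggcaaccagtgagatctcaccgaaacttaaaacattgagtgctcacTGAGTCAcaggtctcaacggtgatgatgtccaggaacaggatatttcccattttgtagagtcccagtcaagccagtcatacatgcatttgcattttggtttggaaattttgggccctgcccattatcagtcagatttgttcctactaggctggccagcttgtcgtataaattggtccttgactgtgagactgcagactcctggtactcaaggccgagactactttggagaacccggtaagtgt
Dmkn: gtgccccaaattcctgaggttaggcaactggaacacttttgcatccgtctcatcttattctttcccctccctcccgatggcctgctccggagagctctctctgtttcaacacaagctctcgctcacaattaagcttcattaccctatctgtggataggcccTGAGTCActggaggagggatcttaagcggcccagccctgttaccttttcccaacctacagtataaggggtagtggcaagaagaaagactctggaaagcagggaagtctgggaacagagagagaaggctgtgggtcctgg

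All 4 windows held TGANTCA, read on both strands, while 7.81% of 32851 promoter windows of the same length held it. Sprr1a had 2 matches, 146 and 116 bases upstream of the start. The match of Sprr1b lay 111, that of Sprr2d 193 and that of Dmkn 89 bases upstream. Among 43 other genes of the cornified envelope with a window, 15 held a match. The letters TATAAA were in the windows of the 3 Sprr genes and in 13.6% of all windows. GGAAGT, an ETS-type motif, was in the Dmkn window shown and in 23.8% of all windows. The octamer ATGCAAAT was in that of Sprr2d and in 1.74% of all windows. Dmkn had 3 windows, of which 1 is shown. CACCC was in the windows of Sprr1a and Sprr1b, in a Dmkn window that is not shown and in 57.5% of all windows. An NF-kB-like motif was in the same Dmkn window and in 20.7% of all windows. Of the 9 motifs searched, the GC box CCGCCC, the STAT motif TTCNNNGAA and a p63-like motif were in none of the windows of these 4 genes. These matches describe letters in the windows, and no binding was measured. Krt16, Krt6a, Krt6b and Krt17 are named here without a window.

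Krt16 differed most among the keratins between Brg1 cKO and wildtype eyes. Its log2 levels were 10.66, 10.93 and 11.09 in the 3 Brg1 cKO arrays, against 3.79, 4.01 and 4.64 in the 3 wildtype arrays. Every cKO array lay far above every wildtype array, with a mean change of 6.75 ± 0.26 (SE) on the log2 scale. Krt6b, a type II partner chain, had levels of 8.46, 9.63 and 9.32 in Brg1 cKO arrays, against 6.22, 6.54 and 5.71 in wildtype arrays. These groups did not overlap either, and the change was 2.98 ± 0.35.

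Krt6a was already bright in wildtype eyes and differed less. Probe set 1422784_at read 9.60, 10.69 and 10.55 in Brg1 cKO arrays, against 8.66, 8.64 and 8.62 in wildtype arrays. Probe set 1422783_a_at read 9.0, 10.32 and 9.96 in Brg1 cKO arrays, against 8.42, 8.14 and 8.07 in wildtype arrays. With probe set 1427700_x_at, the values were 8.43, 9.82 and 9.21 in Brg1 cKO arrays, against 7.74, 7.59 and 7.78 in wildtype arrays. The 3 probe sets gave changes of 1.64 ± 0.29, 1.55 ± 0.33 and 1.45 ± 0.33, and in each of them all cKO arrays lay above all wildtype arrays. Krt6a and Krt6b are neighbouring genes of very similar sequence, so signal from one on a probe set of the other was not tested, and the suffix of 1427700_x_at marks probes that may also bind other transcripts.

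Krt17, a type I chain located near Krt16, was the exception. Its bright probe set, 1423227_at, had levels of 7.22, 9.19 and 8.64 in Brg1 cKO arrays, against 8.05, 8.31 and 7.90 in wildtype arrays. cKO replicate 1 was below all wildtype arrays and the other 2 cKO arrays were above them, so the groups overlapped (change 0.26 ± 0.46). Its other probe set, 1420193_at, stayed between 1.79 and 2.10 in cKO arrays and between 1.97 and 2.15 in wildtype arrays (change −0.07 ± 0.17). That is below the 5th percentile of all probe sets (log2 2.32 on average), so this probe set carries little information on Krt17.

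The 3 small proline-rich genes were dim in Brg1 wildtype eyes and brighter in Brg1 cKO eyes. Sprr2d still lay only between percentiles 36.9 and 51.3 of the probe sets in the cKO arrays. Sprr1b read 7.28, 7.78 and 8.27 in cKO arrays, against 2.17, 2.25 and 2.06 in wildtype arrays, and Sprr1a read 8.82, 9.17 and 9.56 in cKO arrays, against 4.80, 4.39 and 4.49 in wildtype arrays. The changes were 5.62 ± 0.26 for Sprr1b and 4.62 ± 0.23 for Sprr1a, with no overlap. Sprr2d, a member of a family of near-identical Sprr2 copies, read 6.88, 5.73 and 7.03 in cKO arrays, against 2.96, 3.53 and 3.21 in wildtype arrays. Its change was 3.31 ± 0.36, again with no overlap, and signal from other Sprr2 copies was not tested. No detection calls came with the values and wildtype Sprr1b lay below the 5th percentile, so the size of such changes is approximate.

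Dmkn followed the small proline-rich genes in the Brg1 experiment. Its levels were 8.47, 8.73 and 9.15 in Brg1 cKO arrays, against 5.17, 5.52 and 5.21 in wildtype arrays, a change of 3.49 ± 0.22 with no overlap.

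**Figure D1:**
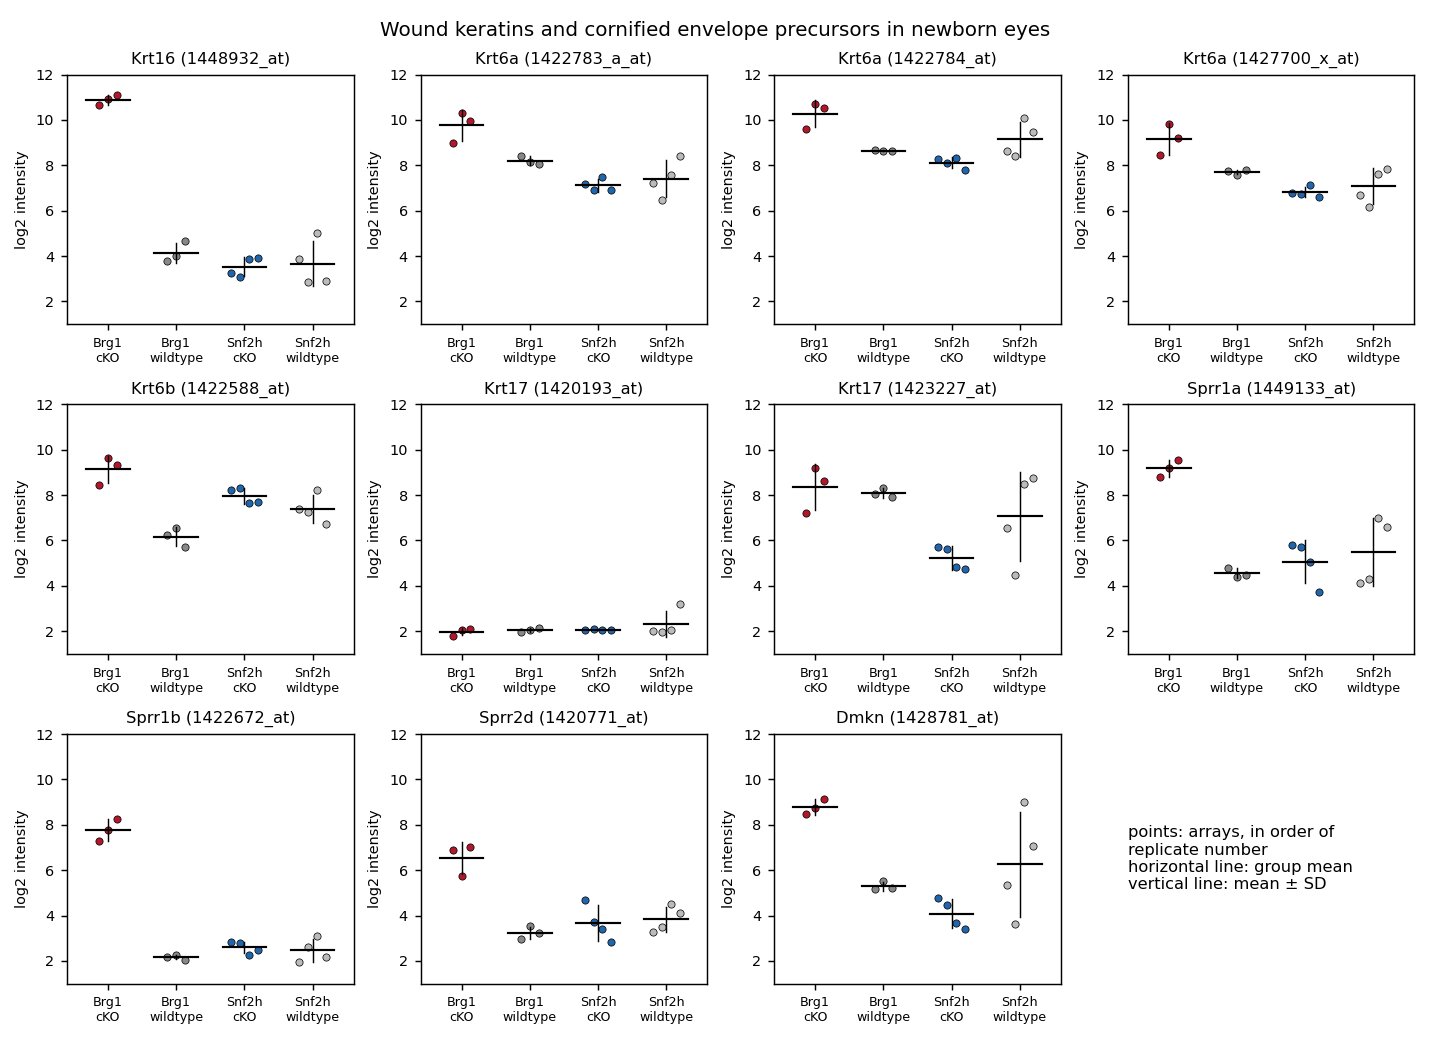
Log2 intensity of the 11 probe sets in each array, with 1 panel a probe set. Groups run from Brg1 cKO and its wildtype to Snf2h cKO and its wildtype, points are arrays, horizontal lines are means and vertical lines are ± SD. In 9 panels all 3 Brg1 cKO points lie above all 3 Brg1 wildtype points, and both Krt17 panels overlap.

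Over the 11 probe sets, 10 changes were positive in Brg1 cKO eyes, and 9 probe sets had all cKO arrays above all wildtype arrays, where 7.23% of all probe sets had this pattern. By limma with Benjamini-Hochberg adjustment over all 20380 probe sets, 6 of the 11 were called higher at an adjusted p under 0.05 (Krt16, Krt6b, Sprr1a, Sprr1b, Sprr2d and Dmkn) and 0 lower. Of all probe sets, 0.623% were called, 0.363% higher and 0.26% lower. These genes were chosen with this contrast in view, so the calls are no test of them and nothing is read from the counts. The median change was 2.98, against −0.006 for all probe sets. Sprr2d and Krt6b lost their call when Brg1 wildtype replicate 1, 2 or 3 or Brg1 cKO replicate 3 was left out, which left 4 calls, and without cKO replicate 1 there were 9, all 3 Krt6a probe sets among them.

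The 3 Brg1 cKO arrays differed among themselves. cKO replicate 1 was the lowest of the 3 in 10 of 11 probe sets, Sprr2d being the exception. Taking 1 probe set a gene, the median of the 8 genes lay 3.41, 3.45 and 3.83 above the wildtype mean in cKO replicates 1, 2 and 3, against −0.01, 0.15 and −0.08 in the wildtype arrays. For the keratins alone, the median deviation was 1.63, 2.76 and 2.53 in cKO replicates 1, 2 and 3, and for the small proline-rich genes it was 4.25, 4.61 and 5.0.

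In whole eyes, more cells of a type and more RNA per cell cannot be told apart, and the markers of other cells are given here for that reason. The summed intensity of 13 neutrophil markers was 5161, 17450 and 6397 in Brg1 cKO arrays, against 778, 417 and 623 in wildtype arrays, so it moved with the group. cKO replicate 2, the highest for these markers, was the highest cKO array in 5 of the 11 probe sets (the 3 of Krt6a, Krt6b and Krt17 1423227_at), and cKO replicate 3 in the other 6. Of the 13 markers, 3 rose (S100a8, S100a9 and Clec4d) and 0 fell. Positive changes numbered 10 and the median was 0.96, with Mpo (−0.01), Elane (−0.02) and Ltf (−0.47) at or below 0. How much of the sum came from S100a8, S100a9 and Clec4d, and which cells gave their signal, was not tested. The summed intensity of 16 lens fibre markers was 24562, 57120 and 14287 in Brg1 cKO arrays, against 91629, 101006 and 91084 in wildtype arrays. The part of these cell types in the levels of the 8 genes was not tested. The 5 terminal epidermis markers summed to 251 to 336 in cKO arrays, against 304 to 414 in wildtype arrays, a sum carried by Krt1 (5.71 to 6.97, against 6.48 to 7.60) and Krt10 (6.77 to 7.57, against 7.61 to 7.72). Lor was above every wildtype array in all 3 cKO arrays (4.14 to 4.88, against 3.62 to 4.01). Krt2 (1.69 to 1.74, against 1.70 to 1.81) and Flg (1.84 to 2.43, against 1.77 to 1.99) were near the lowest values on the arrays. The 24 hair follicle genes summed to 234 to 305 in cKO arrays, against 306 to 409 in wildtype arrays. For 4 corneal epithelium genes the sum was 3664 to 4539 in cKO arrays, against 3954 to 4915 in wildtype arrays, while their mean log2 level did not overlap (8.93 to 9.32 in cKO arrays, against 9.72 to 10.08 in wildtype arrays). These 4 were Krt12 (change −3.70), Krt5 (−0.19), Krt14 (0.98) and Pax6 (−0.24), of which Krt12 was lower and Krt14 higher in every cKO array. Of these 4 genes, Krt12 carried the lower mean. Pax6 was the brightest of them in the wildtype arrays and weighed heavily in the sum (10.23 to 11.31 in cKO arrays, against 10.98 to 11.10). Whether its signal came from corneal epithelium or from other eye tissue was not tested.

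**Figure D2:**
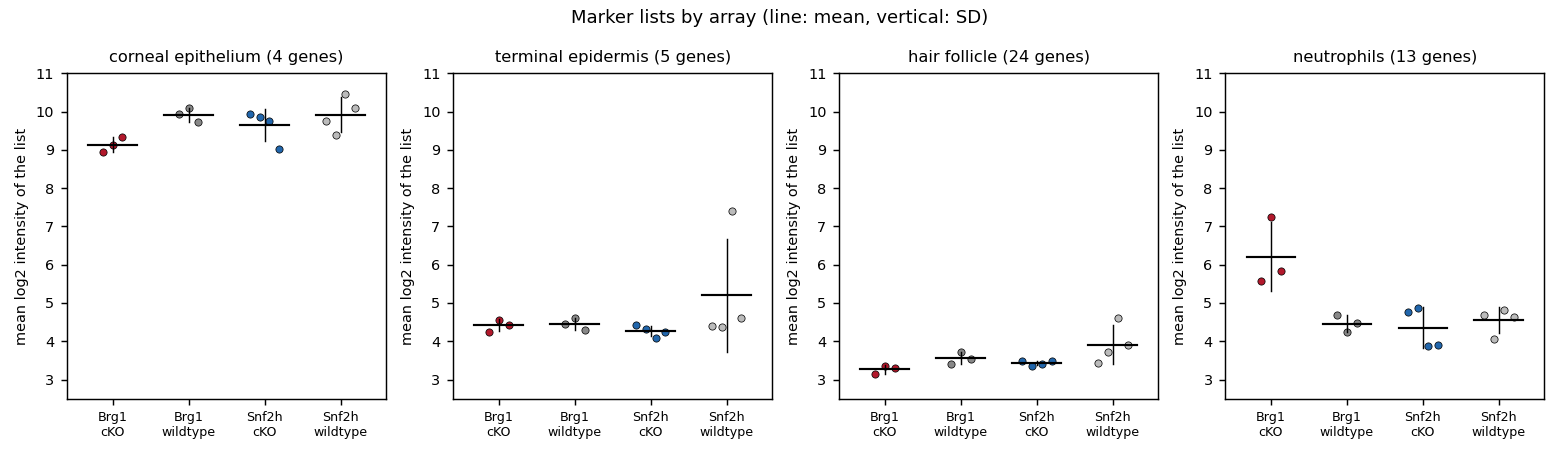
Mean log2 intensity of 4 marker lists in each array, with points for arrays, horizontal lines for group means and vertical lines for ± SD. The neutrophil markers are higher in all 3 Brg1 cKO arrays (5.56 to 7.25) than in the Brg1 wildtype arrays (4.23 to 4.69), and Snf2h wildtype replicate 3 stands apart for terminal epidermis (7.41).

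None of the 11 probe sets was called in Snf2h cKO eyes, where limma called 0 of 20380 probe sets (0%) and 3610 (17.7%) had an unadjusted p under 0.05, among them 3 of the 11. Krt16 had log2 levels of 3.24, 3.09, 3.86 and 3.93 in Snf2h cKO arrays, against 3.85, 2.88, 5.01 and 2.92 in wildtype arrays. The groups overlapped and the change was −0.13 ± 0.44. Sprr1b, at 2.84, 2.77, 2.27 and 2.49 in Snf2h cKO arrays, against 1.96, 2.64, 3.09 and 2.19 in wildtype arrays, was dim in both (0.12 ± 0.25). Sprr2d ranged from 2.85 to 4.70 in cKO arrays and from 3.28 to 4.50 in wildtype arrays (−0.17 ± 0.39). Krt6b was the keratin with a positive change (0.57 ± 0.30), at 8.21, 8.32, 7.63 and 7.71 in Snf2h cKO arrays, against 7.38, 7.27, 8.22 and 6.72 in wildtype arrays, with overlap.

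Dmkn, Krt17, Sprr1a, Krt16 and Krt6a varied widely between the Snf2h wildtype arrays. The ranges were 5.38 for Dmkn, 4.24 for Krt17 1423227_at, 2.86 for Sprr1a, 2.13 for Krt16 and 1.68 to 1.92 for Krt6a. Dmkn read 4.76, 4.47, 3.69 and 3.42 in Snf2h cKO arrays, against 5.36, 3.62, 9.0 and 7.06 in wildtype arrays. For Krt17 1423227_at the levels were 5.71, 5.62, 4.82 and 4.72 in cKO arrays, against 6.55, 4.49, 8.49 and 8.73 in wildtype arrays. In both, wildtype replicate 2 lay within or below the cKO arrays and wildtype replicates 3 and 4 lay far above them. The changes were −2.18 ± 0.95 for Dmkn and −1.84 ± 0.81 for Krt17. Sprr1a read 5.79, 5.71, 5.04 and 3.72 in Snf2h cKO arrays, against 4.11, 4.29, 6.97 and 6.58 in wildtype arrays (−0.42 ± 0.71). Krt6a 1422784_at was the probe set with no overlap, at 8.26, 8.09, 8.32 and 7.79 in cKO arrays, against 8.63, 8.40, 10.08 and 9.45 in wildtype arrays (−1.02 ± 0.34), a pattern that 4.17% of all probe sets had. The other Krt6a probe sets overlapped, at −0.30 ± 0.35 for 1422783_a_at and −0.26 ± 0.34 for 1427700_x_at.

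Snf2h wildtype replicate 3 was the highest wildtype array in 7 of the 11 probe sets and replicate 4 in the other 4. In the same replicate 3 the 5 terminal epidermis markers summed to 3226 (wildtype replicates 1, 2 and 4 gave 231 to 398) and the 24 hair follicle genes to 1421 (316 to 526). Among the defining markers there, Lor was at 9.57, Krt1 at 10.94 and Flg at 5.65, while Krt2 was at 2.09. Its 3' minus 5' difference of the Gapdh control, a sign of RNA quality, was 4.47. The cKO arrays gave 0.77 to 0.99 and wildtype replicates 1, 2 and 4 gave 1.09 to 1.46. The part of this array was measured by leaving it out. The Dmkn change then was −1.26, that of Krt17 1423227_at −1.37 and that of Krt6a 1422784_at −0.71. Krt16 turned to 0.32, Sprr1a to 0.07 and Sprr2d to 0.05. Snf2h cKO replicates 1 and 2 were near-identical (SD of their log2 differences 0.22, against 0.42 to 0.72 in the other 17 pairs within groups), so the errors in this experiment treat 2 very similar arrays as independent.

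**Figure D3:**
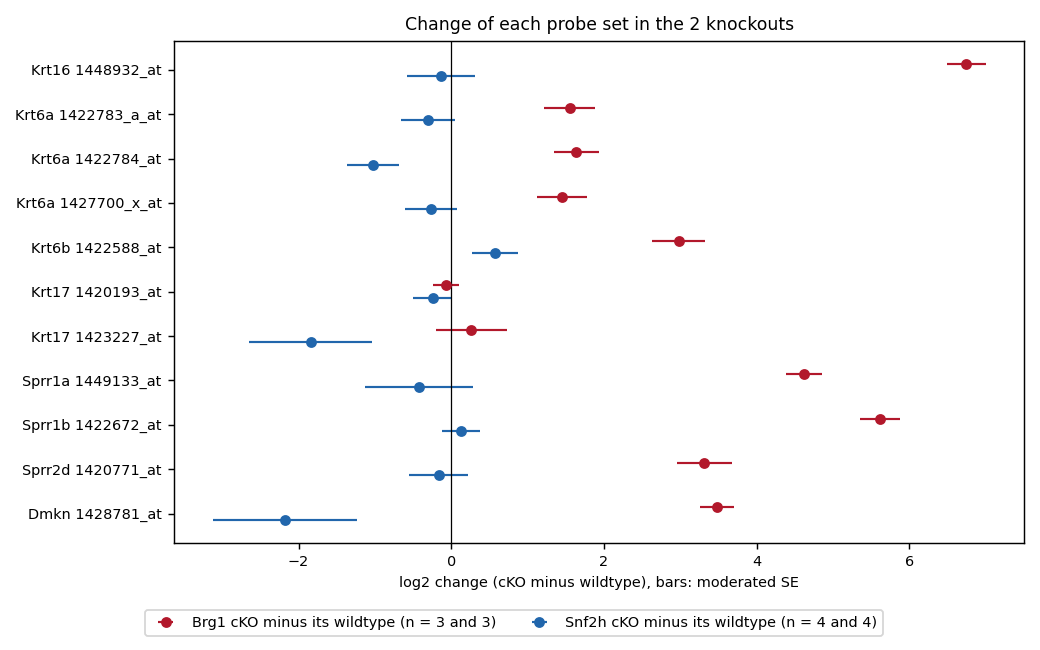
Log2 change of each probe set in the Brg1 knockout (red, 3 cKO and 3 wildtype arrays) and the Snf2h knockout (blue, 4 and 4), cKO minus wildtype, with bars of 1 moderated SE. The Brg1 changes run from −0.07 for Krt17 1420193_at to 6.75 for Krt16, while the Snf2h changes run from −2.18 for Dmkn to 0.57 for Krt6b.

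The labels of the deleted genes were checked on their own probe sets. Smarca4 1426805_at read 7.08, 7.06 and 7.92 in Brg1 cKO arrays, against 8.47, 7.75 and 8.07 in wildtype arrays, and 1426804_at read 9.41, 8.71 and 8.99, against 9.16, 8.91 and 8.91. Smarca5 1424205_at ranged from 8.72 to 9.05 in Snf2h cKO arrays, against 9.02 to 9.65 in wildtype arrays. Smarca5 1424206_at ranged from 8.52 to 9.73, against 9.34 to 9.82 (change −0.19 ± 0.25), and 1424207_at from 7.38 to 7.83, against 6.60 to 7.82 (0.31 ± 0.25). Each gene's groups overlapped in its own knockout in all 5 probe sets, and none passed there by limma (lowest adjusted p 0.188 for Smarca5 and 0.579 for Smarca4). Whether these probe sets lie in deleted exons is not known, and whole eyes hold much tissue besides the lens. Median intensity per array lay between 101 and 114.

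Most other epithelial keratins had negative changes. Of 19 measured other keratins in 22 listed, 0 rose and 1 fell in Brg1 cKO eyes by limma, 9 had an unadjusted p under 0.05, and 15 had negative changes (median −0.53, against 0.02 for all 12393 genes; 0.5% of all genes were called higher, 0.355% lower, and 9.04% had such an unadjusted p). The gene that fell was Krt12, the keratin of corneal epithelium, at 5.33, 5.84 and 5.79 in cKO arrays, against 9.29, 9.50 and 9.26 in wildtype arrays (change −3.70 ± 0.20, limma adjusted p = 0.000546). Krt15, a basal keratin, had 7.20, 9.70 and 8.49 in cKO arrays, against 11.47, 11.58 and 11.35 in wildtype arrays, and did not pass (−3.01 ± 0.55, adjusted p = 0.091). Krt7 (−2.87 ± 0.53, adjusted p = 0.0911) and Krt4 (−2.15 ± 0.50, adjusted p = 0.189) did not pass either.

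The basal keratins Krt5 and Krt14 give the background of stratified epithelium. Krt5 read 9.44, 10.04 and 9.98 in Brg1 cKO arrays, against 9.96, 10.41 and 9.69 in wildtype arrays (−0.19 ± 0.26, limma adjusted p = 0.896). Krt14, a type I keratin, had higher values in all cKO arrays (9.66, 10.40 and 10.64, against 9.46, 9.34 and 8.95) but did not pass (0.98 ± 0.29, adjusted p = 0.337), and its other probe sets gave 0.04 and 1.04. In Snf2h cKO eyes 0 of the 19 other keratins were called, 4 had an unadjusted p under 0.05 (16.4% of all genes), and the median was −0.41 (all genes −0.05). Krt5 read 10.12, 10.08, 9.91 and 9.45 in Snf2h cKO arrays, against 10.54, 10.21, 11.86 and 10.92 in wildtype arrays. These groups did not overlap, and the change did not pass (−0.99 ± 0.32, limma adjusted p = 0.187). The Krt14 groups overlapped (−0.70 ± 0.54, adjusted p = 0.516).

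Of 29 measured other cornified envelope precursors in 51 listed, 3 rose and 0 fell in Brg1 cKO eyes, and 25 had positive changes (median 0.49), where 52.8% of all genes did. Sprr2h read 5.48, 5.25 and 7.01 in cKO arrays, against 2.34, 2.77 and 2.42 in wildtype arrays (3.40 ± 0.44, limma adjusted p = 0.0267). Its probe set was 1422240_s_at, and signal there from Sprr2d or other near-identical Sprr2 copies was not tested. Sprr3 read 4.29, 4.33 and 5.37 in cKO arrays, against 2.29, 2.45 and 2.56 in wildtype arrays (2.23 ± 0.30, adjusted p = 0.0298). Crct1, a gene of the same chromosomal complex, also rose (2.08 ± 0.31, adjusted p = 0.0434). These calls were sensitive to single arrays: without wildtype replicate 1, 2 or 3, Sprr2h and Sprr3 missed the threshold (highest adjusted p 0.168 and 0.181), and Crct1 kept its call only without cKO replicate 1 (highest adjusted p otherwise 0.228). The classical envelope proteins involucrin (Ivl, 0.69 ± 0.24, adjusted p = 0.48) and loricrin (Lor, 0.66 ± 0.23, adjusted p = 0.499) did not pass. In Snf2h cKO eyes 0 of the 29 were called, 2 had an unadjusted p under 0.05 and 3 had positive changes (median −0.55), where 43.5% of all genes did.

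Of 17 measured envelope cross-linking and barrier enzymes in 25 listed, 1 rose and 0 fell in Brg1 cKO eyes (median 0.39). Klk10, a kallikrein-related protease, read 4.07, 4.41 and 4.48 in cKO arrays, against 3.15, 3.13 and 2.74 in wildtype arrays (1.31 ± 0.20, limma adjusted p = 0.0438), and among the fits without 1 array kept its call only without cKO replicate 1 (highest adjusted p otherwise 0.191). Tgm1, the transglutaminase that cross-links envelope precursors, had a change of 1.15 ± 0.32 that did not pass (adjusted p = 0.294). St14, which encodes matriptase, a membrane protease of epithelia, read 7.99, 7.83, 7.71 and 7.94 in Snf2h cKO arrays, against 6.68, 6.83, 6.84 and 6.84 in wildtype arrays. The groups did not overlap and the change of 1.07 ± 0.13 missed the threshold over all probe sets (adjusted p = 0.0586). This miss depended on the setting, since St14 was called in 6 of 10 other settings and in 2 of 8 fits without 1 array.

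Genes listed as keratinocyte activation signals rose in part, and those that rose included Il1rn, which encodes a receptor antagonist. Of 21 measured genes in 27 listed, 5 rose and 0 fell in Brg1 cKO eyes, with a median of 0.78. Il1b, which encodes interleukin-1 beta, read 8.95, 11.29 and 9.73 in cKO arrays, against 3.20, 3.71 and 3.64 in wildtype arrays (6.47 ± 0.54, limma adjusted p = 0.00512). Il1rn, its receptor antagonist, changed by 5.01 ± 0.52 (adjusted p = 0.0114). The other Il1rn probe sets gave 1.85 (adjusted p = 0.136) and 3.18 (adjusted p = 0.0303). Il24, a cytokine of the interleukin-10 family, read 5.13, 5.05 and 5.15 in cKO arrays, against 3.17, 3.18 and 3.37 in wildtype arrays (1.86 ± 0.16, adjusted p = 0.00512). The EGF receptor ligands Ereg (3.04 ± 0.38, adjusted p = 0.0207) and Epgn (2.03 ± 0.26, adjusted p = 0.0267) also rose, and each missed the threshold without wildtype replicate 1, 2 or 3 or cKO replicate 3 (highest adjusted p 0.138 for Ereg and 0.164 for Epgn). Il1rn missed it without wildtype replicate 2 or cKO replicate 3 (highest adjusted p 0.0762). Il1b and Il1rn are made by neutrophils and macrophages as well as by epithelium. Of the 13 neutrophil markers, S100a8 (5.01 ± 0.54, adjusted p = 0.0138), S100a9 (4.48 ± 0.41, adjusted p = 0.0073) and Clec4d (5.69 ± 0.48, adjusted p = 0.00512) rose in the same arrays. The rest were not called, and Mpo (−0.01), Elane (−0.02) and Ltf (−0.47) did not rise. Which cells gave the signal of S100a8, S100a9 and Clec4d was not tested. S100a8 missed the threshold without wildtype replicate 1, 2 or 3 (highest adjusted p 0.0786) and S100a9 without wildtype replicate 1 (adjusted p = 0.0544). With an offset of 50 added to the intensities, Il24 kept its call at a smaller change (0.51, adjusted p = 0.0471), while Il1b (4.13, adjusted p = 0.192) and Clec4d (4.45, adjusted p = 0.129) missed the threshold. In Snf2h cKO eyes 0 of the 21 were called and 3 had an unadjusted p under 0.05.

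**Figure D4:**
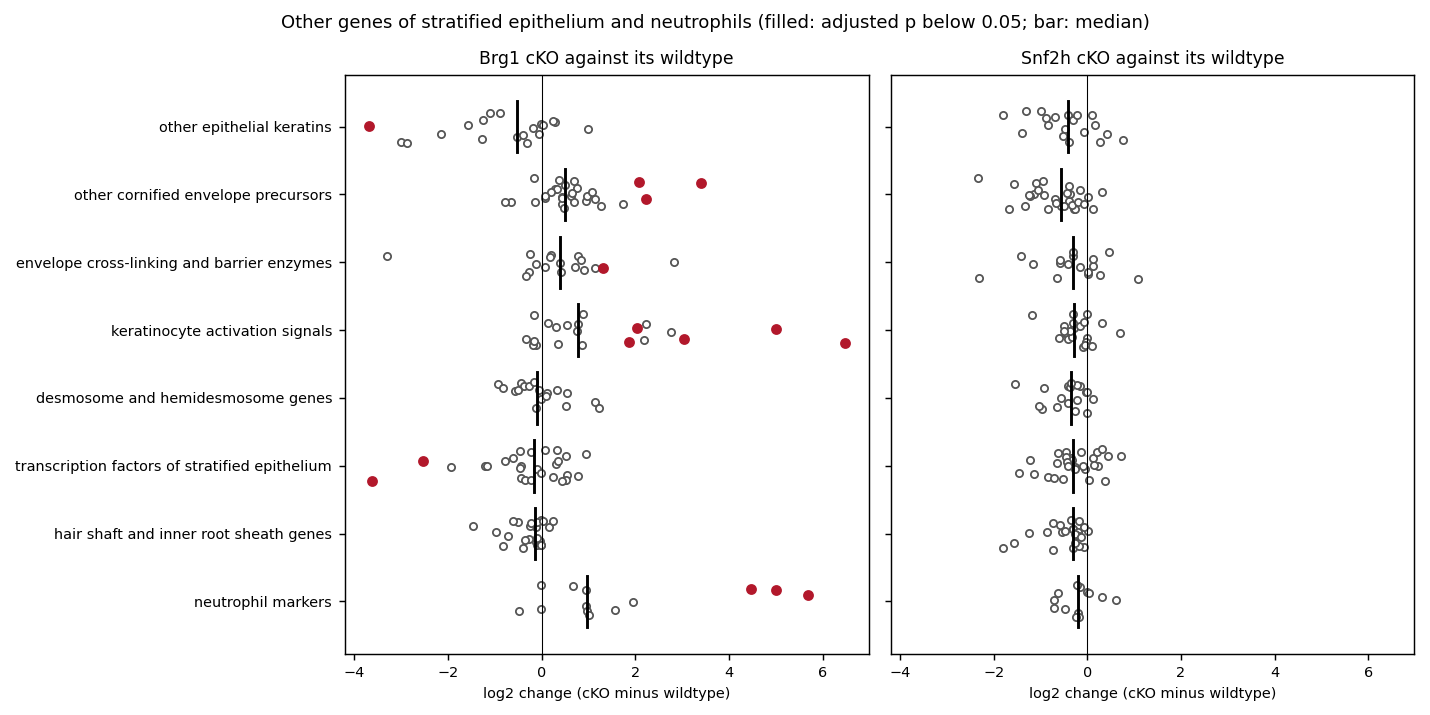
Log2 change of each measured gene in 8 lists in the Brg1 knockout (left) and the Snf2h knockout (right), 1 point a gene, with a bar at the list's median and filled points where the adjusted p was under 0.05. Krt12 lies at −3.70 and Il1b at 6.47 on the left, and no point is filled on the right.

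Of 28 measured transcription factors of stratified epithelium in 31 listed, 0 rose and 2 fell in Brg1 cKO eyes by limma, 11 had an unadjusted p under 0.05 and 12 had positive changes (median −0.17). Ehf, an ETS factor of epithelia, read 4.94, 5.37 and 5.96 in cKO arrays, against 9.58, 8.90 and 8.66 in wildtype arrays (−3.62 ± 0.33, limma adjusted p = 0.00717), and Elf5, a related factor, fell by 2.54 ± 0.35 (adjusted p = 0.0315). Ehf missed the threshold with the offset (−2.63, adjusted p = 0.112). The other Ehf probe sets gave −1.91 and −2.71, and the other Elf5 probe set gave −2.16 (adjusted p = 0.149). Among the fits without 1 array Elf5 kept its call only without cKO replicate 2 (highest adjusted p otherwise 0.155). Among AP-1 subunits, Junb had a change of 0.95 ± 0.18 (adjusted p = 0.0994) and Fosl1 0.52 ± 0.18 (adjusted p = 0.502), while the other Fosl1 probe set gave 1.94 (adjusted p = 0.0828). Trp63, the p63 factor of basal epithelium, had −1.94 ± 0.45 (adjusted p = 0.192), and its other probe sets gave 0.07 and 0.26. The lists of 18 desmosome and hemidesmosome genes (median −0.09) and 24 hair shaft and inner root sheath genes (median −0.13) held 0 calls by limma in Brg1 cKO eyes, with 4 and 1 genes at an unadjusted p under 0.05. In Snf2h cKO eyes all 3 lists held 0 calls, with 6, 4 and 5 genes at an unadjusted p under 0.05.

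Whether the knockout effects on the other genes differed between the 2 experiments was tested as an interaction over all 14 arrays. In it, 0.687% of all probe sets were called, 0.545% with a higher and 0.142% with a lower value in Brg1. The experiments also differ in strain, so a difference cannot be assigned to the deleted gene. The genes were partly named by small p in the Brg1 contrast, which is itself part of this interaction. Sprr2h (difference of the log2 changes, Brg1 minus Snf2h, 3.84, limma adjusted p = 0.0106) and Sprr3 (2.11, adjusted p = 0.00962) differed, as did Krtdap (2.78, adjusted p = 0.0479). Krtdap, a keratinocyte differentiation gene located next to Dmkn, read 9.55, 9.68 and 9.97 in Brg1 cKO arrays, against 8.42, 8.35 and 7.23 in wildtype arrays, and in the Brg1 contrast alone it did not pass (1.74 ± 0.33, adjusted p = 0.103). Krt12 differed in the other direction (−4.12, adjusted p = 0.000155). Krtdap kept this call in 1 of 14 fits without 1 array.

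Sprr1a, Sprr1b and Sprr2d lie in the epidermal differentiation complex on chromosome 3, which the RefSeq gene order bounds here by S100a1 and S100a10. Of its 70 genes, 39 were measured, and of the 36 besides these 3 genes, 5 rose and 0 fell in Brg1 cKO eyes (S100a8, S100a9, Sprr2h, Sprr3 and Crct1; median of the 36 0.40, and −0.31 in Snf2h cKO eyes). Sprr3 stands between Sprr1b and Sprr1a in this order. Of the 36 changes 27 were positive, and those of Flg (0.20), Hrnr (0.06) and Tchh (0.06) were small. In the type I keratin cluster on chromosome 11, 23 measured genes besides Krt16 and Krt17 had 0 rises, 1 fall (Krt12) and a median of −0.27. The type II cluster on chromosome 15 had 0 calls by limma among 19 measured genes besides Krt6a and Krt6b, with a median of −0.23. These blocks were chosen after seeing the data, and no test was made of them.

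**Figure D5:**
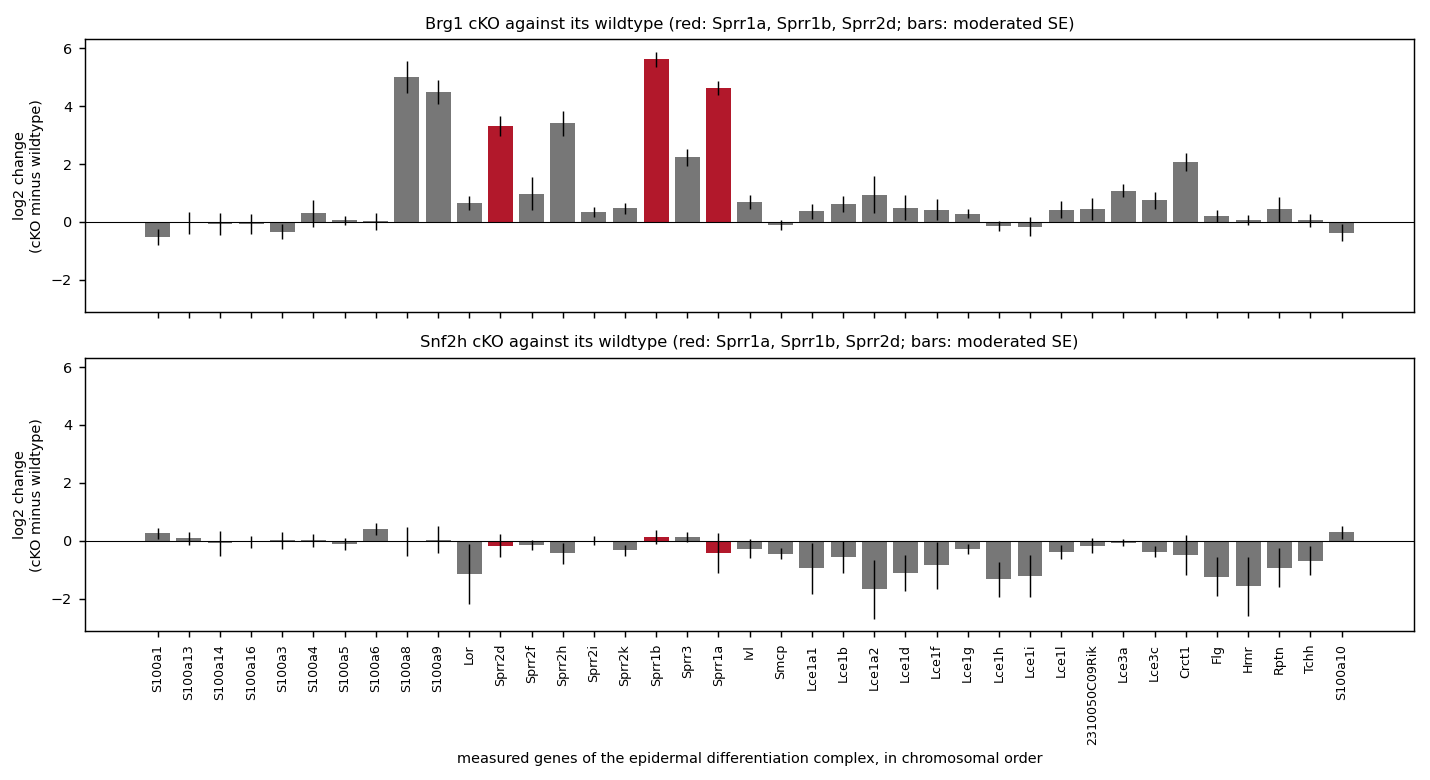
Log2 change of the 39 measured genes of the epidermal differentiation complex in chromosomal order, in the Brg1 knockout (top) and the Snf2h knockout (bottom), with bars of 1 moderated SE. Sprr1b (5.62), S100a8 (5.01), Sprr1a (4.62) and S100a9 (4.48) stand out at the top, and beyond Sprr1a in the order Crct1 is the highest (2.08).

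The genes nearest to the median profiles of the keratins and the small proline-rich genes were found by the root mean square difference over the 14 arrays. Each profile was the deviation from the mean of its own wildtype arrays. The median keratin profile was 1.63, 2.76 and 2.53 in the Brg1 cKO arrays. Krt16 deviated there by 6.51, 6.78 and 6.94 and Krt17 1423227_at by −0.87, 1.10 and 0.55. A gene near this median is therefore not like each of the keratins. For the median keratin profile, Osmr was nearest (0.31, against a median of 1.23 over all genes), with changes of 2.19 ± 0.35 in Brg1 cKO and −0.40 ± 0.32 in Snf2h cKO eyes. Gpr35, Bst1, Chil1 and Il13ra2 followed at 0.38 to 0.44. For the small proline-rich profile, Slpi was nearest (0.55, against a median of 2.19), with changes of 4.31 ± 0.49 and −0.36 ± 0.20, and Cxcl5, Clec4e, Saa3 and S100a9 followed at 0.55 to 0.64. These likenesses describe 14 arrays in which 3 arrays of 1 group carry most of the deviation.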

How the data were processed

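RNA of whole newborn eyes (50 ng a sample, amplified and labelled with biotin, per the labels' protocols) was measured on 14 arrays. The deposited values were linear probe set intensity, made with RMA according to the authors (per the submitters' processing notes), with the version and any joint processing of the experiments not given in the sources used here. The array annotation gave 1 gene to 20380 of 22690 probe sets; 64 controls, 691 probe sets with several genes and 1555 with none were left out. Depth does not apply, and the number of arrays limits precision.

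The log2 was taken with no offset and no further scaling. Each knockout was compared with its own wildtype with limma 3.58.1 (lmFit, eBayes) in R 4.3.3, two-sided, with Benjamini-Hochberg adjustment over 20380 probe sets and a threshold of 0.05. Errors are moderated standard errors. Gene lists used 1 probe set a gene, the brightest on average (12393 genes). The fits were tested on simulated data. The labels do not say which animals gave the Brg1 samples, and all 3 Brg1 cKO samples carry the same numbered genotype entry while their titles number them 1 to 3, so p-values and errors measure the spread between these samples.

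The genes and the 12 lists were chosen with earlier results of these data known. Every probe set of the 8 genes was named, then up to 6 genes a list by the smallest p in the Brg1 contrast and up to 2 in the Snf2h contrast, with St14, Krt12, Krt5, Krt14, Ivl and Lor always named, and the 5 genes nearest each profile. Gene blocks on chromosomes were added after seeing the data, as were their members named in the text. The alternatives tried were a filter on dim probe sets, an offset of 50, quantile normalisation (over 14 arrays, or by experiment), 1 probe set a gene, array weights, trended robust eBayes, 1 fit over all arrays, a replicate block, averaging Snf2h cKO replicates 1 and 2, and leaving out each array. The lists for corneal stroma, eyelid and eye muscle, and goblet and secretory epithelium, read as markers of other cells, had medians of −0.15, 0.25 and −0.45 in Brg1 cKO eyes. Only Agr2 of the goblet list was called (−2.01 ± 0.31, limma adjusted p = 0.0438), and its other probe set gave −0.73 (adjusted p = 0.288). Promoter windows came from RefSeq on GRCm38.p6, where 4 of 8 genes matched.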

Additional observations from a re-analysis of the deposited data

Results flagged for a closer look

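In 34 groups of 4 arrays, 3 held an array far from the other 3 by Dixon's test, which chance gives in about 1 in 20 groups. Krt17 1420193_at was at 3.178 in Snf2h wildtype replicate 4, against 1.973 to 2.065 in the other wildtype arrays. Lor was at 9.568 in Snf2h wildtype replicate 3, against 4.071 to 4.956. St14 was at 6.677 in Snf2h wildtype replicate 1, against 6.83 to 6.844.

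For Dmkn, every Brg1 cKO array lay above its wildtype mean and every Snf2h cKO array below its own. The difference of the log2 changes was 5.663 (3.485 in Brg1 and −2.178 in Snf2h cKO eyes) and was not tested, since the gene was chosen with both values in view. Krt6a 1422784_at had the same pattern, with a difference of 2.662 (1.637 and −1.024), also not tested. Krt16, Sprr1a, Sprr1b and Sprr2d had Snf2h cKO arrays on both sides of their wildtype mean.

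The effects of the knockouts on 16 named other genes differed by the interaction test (limma, Brg1 minus Snf2h on the log2 scale). Among cytokines and growth factors these were Il1b (6.487, adjusted p = 5.15e-05), Il1rn (5.513, 0.000209), Ereg (4.231, 0.000327), Il1f9 (2.494, 0.0156), Epgn (2.349, 0.00587) and Il24 (1.906, 0.000583). Among envelope genes they were Sprr2h (3.842, 0.0106), Krtdap (2.783, 0.0479), Sprr3 (2.108, 0.00962) and Lce3a (1.146, 0.0498). Of the enzymes and inhibitors, Serpinb2 (2.826, 0.0137) and St14 (−1.198, 0.0418) differed, and of the keratins Krt12 (−4.122, 0.000155). The neutrophil markers Clec4d (6.407, 3.96e-05), S100a8 (5.026, 0.00985) and S100a9 (4.436, 0.0083) also differed. Krtdap, Lce3a and St14 each kept this call in 1 of 14 fits that left out 1 array. Strain and experiment cannot be told apart from the deleted gene in this test. The genes were also partly named by small p in the Brg1 contrast, which is part of the interaction.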

How the results depend on the processing

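The calls of the 11 probe sets describe the settings and are no test of genes chosen on this contrast. With an offset of 50 before log2, 3 of the 11 probe sets were called in place of 6, with a median change of 1.53 in place of 2.98, since an offset shrinks the changes of dim probe sets. All Brg1 calls numbered 127, and 58 with the dim filter, 16 with the offset, 50 with the replicate block and 280 in 1 fit over all arrays. Genes of the 7 other epithelial lists called higher numbered 9, and 2 with the filter, 1 with the offset and 3 with the block. Those called lower numbered 3, and 1 with the offset, 5 with array weights and 7 in 1 fit. Leaving out 1 array gave 25 to 199 Brg1 calls, 4 to 9 of the 11 probe sets, medians of 2.73 to 3.17, and 2 to 13 other genes higher and 2 to 6 lower. With the offset, Krt12 and Il24 kept their Brg1 calls, and Sprr2h, Sprr3, Crct1, Klk10, Il1b, Il1rn, Ereg, Epgn, Ehf, Elf5, S100a8, S100a9 and Clec4d did not (adjusted p of 0.112 for Ehf to 0.452 for Sprr2h).

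In Snf2h cKO eyes 0 probe sets were called, and 35 with the filter, 2 with 1 probe set a gene, 3 with the offset, 7 with trended robust eBayes, 561 with array weights and 5 in 1 fit. None of these calls was 1 of the 11. Under each of these 6 settings 1 other epithelial gene was higher, and with array weights 6 were lower and the median of the 11 was −0.12 in place of −0.26. Leaving out 1 array gave 0 to 184 calls (184 without wildtype replicate 1, 77 without wildtype replicate 4), medians of −0.567 to −0.057, and 0 to 1 other genes higher and 0 to 4 lower. The interaction called 140 probe sets, and 47 with the filter, 34 with the offset, 81 with the block and 82 with Snf2h cKO replicates 1 and 2 averaged. It called 12 other genes higher (2 with the filter, 5 with the offset) and 2 lower (5 with array weights, and 1 with all arrays quantile normalised, with the block or with the pair averaged). Leaving out 1 array gave 66 to 290 calls, 8 to 11 higher and 1 to 3 lower.

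Of the named other genes, the change of Krt5 ranged from −0.36 to 0.000798 (the last without Brg1 wildtype replicate 2) and that of St14 from −0.359 to 0.0426 (the last without Brg1 cKO replicate 3) when 1 array was left out. The Snf2h change of Lor ranged from −1.69 to 0.143 and that of Ivl from −0.526 to 0.0175, the positive values being those without Snf2h wildtype replicate 3. The causes of these differences between settings were not tested. The deviations of same-numbered arrays correlated weakly (r of 0.07 to 0.13 in the Brg1 and −0.23 to 0.06 in the Snf2h experiment). No array correlated best with its own number. With 3 or 4 arrays a group, these values cannot exclude that the numbers pair the samples. With the replicate block, Sprr2d was not among the 5 probe sets called.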
